A study of Homo sapiens with 30 samples.

Results

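H/ACA small nucleolar RNAs (snoRNAs) and small Cajal body RNAs (scaRNAs) were examined across 2 human cell lines that had been exposed to Omomyc, a miniprotein made from a mutated dimerization domain of MYC. The genes were those whose symbol starts with SNORA or SCARNA and whose mean over all 30 RNA-Seq libraries was at least 0.5 RPKM (reads per kilobase of transcript, scaled to library size), so they were selected on their level. Of 239 such symbols among the 57992 genes in the table, 66 passed, 53 SNORA and 13 SCARNA genes. Just inside the limit were SNORA80E, SCARNA16 and SNORA50B with means of 0.53, 0.53 and 0.54 RPKM, and just outside it were SNORA74C-2, SNORA59A and SNORA9B with 0.47, 0.42 and 0.39 RPKM.

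HCT116 cells, a colon carcinoma line that the labels describe as having stabilized MYC, were untreated or received Omomyc at 2 or 10 µM for 6 or 24 h. Ramos cells, a Burkitt's lymphoma line with a MYC translocation, were untreated or received 0.5 or 2.5 µM for 6 or 24 h. Each of the 10 groups had 3 libraries of ribosomal RNA-depleted total RNA. Each line had a single untreated group with no time point of its own, so the 4 treated groups of a line were all compared with the same 3 libraries. The study's methods give the lower HCT116 dose as 2.5 µM where the labels give 2 µM, and the time tag of the HCT116 libraries titled 24 h reads 4 h; the titles were followed. The same methods describe a protein delivery reagent for HCT116 cells, describe no RNA-Seq of Ramos cells, and do not say whether the untreated cells received the reagent. Nothing says that the 3 libraries of a group came from separate cultures, so p-values measure the spread between libraries, which may be technical. The 7 B-cell markers examined lay between 38.6 and 635 RPKM in Ramos cells, and 6 of 7 epithelial markers were present in HCT116 cells, VIL1 being at most 0.06 RPKM. The depth of the libraries is unknown. The third HCT116 library of 10 µM for 6 h and the third untreated Ramos library stood apart. In the first the 66 genes summed to 3703 RPKM against 6132 and 8685 in its companions while all genes summed to 1051041 RPKM (791845 and 795720 in the companions), and in the second only 35 of the 66 genes were above 0 against 56 and 52. The number of genes called in each comparison that holds either library is given with and without it, and other values include it unless stated.

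H/ACA RNAs fold into hairpins whose internal loops pair with a target RNA, and the enzyme dyskerin, bound with NHP2, NOP10 and GAR1, then converts a uridine of the target to pseudouridine. Targets of snoRNAs lie mostly in ribosomal RNA, whereas scaRNAs are held in Cajal bodies and act on spliceosomal snRNAs. In vertebrates nearly all of these RNAs are cut out of introns of other genes, often genes for ribosomal proteins or translation factors or the noncoding SNHG genes, while some scaRNAs are of the C/D type or carry C/D and H/ACA domains together. All levels below are per length, and in bulk RNA a change in the number of cells that make an RNA and a change in RNA per cell cannot be told apart.

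The sequences of the genes on which the results turn are shown first, from GENCODE 29 (genome build GRCh38), because the genes that fell at the higher dose in Ramos cells carry other boxes than most of the group. The ACA box is in capitals in this first set, which holds SNORA66 and SNORA36A, with large rises in HCT116 cells, the gene with the largest fall, the highest of the genes listed at 0 in Ramos cells, the SNORA73 pair and an H/ACA-type scaRNA.

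SNORA66: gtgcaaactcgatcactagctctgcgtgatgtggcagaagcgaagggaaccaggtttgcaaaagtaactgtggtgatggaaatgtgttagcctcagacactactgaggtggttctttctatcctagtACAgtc
SNORA36A: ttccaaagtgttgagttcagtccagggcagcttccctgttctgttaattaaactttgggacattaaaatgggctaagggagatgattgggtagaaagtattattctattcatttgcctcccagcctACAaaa
SNORA77B: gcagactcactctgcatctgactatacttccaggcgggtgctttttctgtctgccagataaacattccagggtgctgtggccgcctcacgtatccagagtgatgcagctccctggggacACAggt
SNORA48: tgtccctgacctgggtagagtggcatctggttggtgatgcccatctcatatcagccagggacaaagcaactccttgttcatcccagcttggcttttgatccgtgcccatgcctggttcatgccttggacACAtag
SNORA73A: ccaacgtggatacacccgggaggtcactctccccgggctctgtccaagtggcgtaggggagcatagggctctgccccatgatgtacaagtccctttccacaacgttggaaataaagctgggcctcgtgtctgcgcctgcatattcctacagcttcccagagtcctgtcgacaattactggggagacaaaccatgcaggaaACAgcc
SNORA73B: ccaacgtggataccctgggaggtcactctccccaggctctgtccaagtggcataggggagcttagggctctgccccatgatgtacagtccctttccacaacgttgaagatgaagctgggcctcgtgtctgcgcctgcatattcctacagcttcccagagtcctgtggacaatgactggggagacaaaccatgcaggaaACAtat
SCARNA13: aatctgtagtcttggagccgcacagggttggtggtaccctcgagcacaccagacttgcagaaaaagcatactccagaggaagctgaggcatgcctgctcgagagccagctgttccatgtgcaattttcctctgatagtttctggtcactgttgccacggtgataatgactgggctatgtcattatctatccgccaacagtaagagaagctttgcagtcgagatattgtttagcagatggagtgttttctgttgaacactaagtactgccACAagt

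SNORA66 lies at chr1:92840719-92840851 (+ strand) inside RPL5, SNORA36A at chrX:154768528-154768659 (+ strand) inside DKC1, and SNORA77B at chr22:20126402-20126526 (+ strand) inside RANBP1. SNORA48 lies at chr17:7574713-7574847 (+ strand) inside EIF4A1, SNORA73A and SNORA73B at chr1:28507366-28507571 (+ strand) and chr1:28508559-28508762 (+ strand) inside SNHG3, and SCARNA13 at chr14:95533355-95533629 (- strand) inside SNHG10.

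Scanned on the strand of the RNA, the letters ACA stood exactly 3 bases from the 3′ end in 46 of the 66 genes (69.7%), against 2.36% of 26351 other annotated transcripts of 100 to 450 bases and 0 of 38 SNORD transcripts of that length. In 40 of 53 SNORA genes and 6 of 13 SCARNA genes the box was at that place. ACA was found anywhere in the last 10 bases of 58 genes (87.9%, against 13.8% of the other transcripts). The letters ANANNA, the hinge or H box, were present in 95.5% of the genes and in 94.9% of the other transcripts, so they did not distinguish the group.

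The second set shows scaRNAs with the C box (TGATGA) and, near the 3′ end, the D box (CTGA) in capitals; for SCARNA2, SCARNA7 and SCARNA10, which are longer, only the last 60 bases are given.

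SCARNA12: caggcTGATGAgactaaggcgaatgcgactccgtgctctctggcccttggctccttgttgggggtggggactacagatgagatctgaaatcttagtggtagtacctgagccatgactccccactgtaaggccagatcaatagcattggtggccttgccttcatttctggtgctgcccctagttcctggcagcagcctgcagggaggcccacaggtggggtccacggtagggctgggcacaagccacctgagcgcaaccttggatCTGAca
SCARNA5: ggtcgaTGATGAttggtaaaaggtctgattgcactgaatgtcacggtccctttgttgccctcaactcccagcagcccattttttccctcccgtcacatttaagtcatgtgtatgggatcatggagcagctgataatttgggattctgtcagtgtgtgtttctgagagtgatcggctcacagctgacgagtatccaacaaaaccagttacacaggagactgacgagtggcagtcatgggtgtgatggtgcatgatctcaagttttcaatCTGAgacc
SCARNA2: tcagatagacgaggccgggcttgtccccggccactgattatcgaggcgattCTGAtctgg
SCARNA7: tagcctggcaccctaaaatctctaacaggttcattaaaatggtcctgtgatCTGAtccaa
SCARNA10: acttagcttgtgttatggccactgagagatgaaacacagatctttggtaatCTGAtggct

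SCARNA12 lies at chr12:6967337-6967606 (- strand) inside PHB2 and SCARNA5 at chr2:233275727-233276002 (+ strand) inside ATG16L1. SCARNA2 lies at chr1:109100193-109100612 (+ strand) inside an exon of a long noncoding RNA that the annotation gives only as ENSG00000270066, SCARNA7 at chr3:160514907-160515236 (- strand) inside KPNA4 and SCARNA10 at chr12:6510222-6510551 (+ strand) inside NCAPD2. TGATGA together with CTGA in the last 15 bases was found in 7 genes, namely SCARNA2, SCARNA5, SCARNA6, SCARNA7, SCARNA9, SCARNA10 and SCARNA12, and ACA stood 3 bases from the end in none of them. TGATGA alone was present in 13.8% of the other transcripts and CTGA in the last 15 bases in 7.4%. The letters TGAG, which can form the CAB box that holds scaRNAs in Cajal bodies, were present in 11 of 13 SCARNA and 20 of 53 SNORA genes, and in 75.5% of the other transcripts.

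Levels spanned over 3 orders of magnitude, and 10 genes held 89.6% of the summed mean level. SCARNA2, a guide for spliceosomal snRNA, was highest with a mean of 1488 RPKM over the 30 libraries, followed by SNORA73A with 931 RPKM, an RNA needed for early cleavage of the ribosomal RNA precursor. SCARNA10, SNORA73B, SCARNA12, SCARNA13 and SCARNA7 had 534, 391, 377, 334 and 196 RPKM, SCARNA5 had 116, SNORA48 had 85.4 and SCARNA6 had 59.2. Of these 10 genes only SNORA48 was shorter than 160 bases. In all, 49 genes were under 160 bases and 17 were longer (SNORA71B and SNORA59B counting as longer by their annotated gene span).

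Values of 0 were mostly in short genes and in Ramos cells. The table listed 38 genes at 0 in at least 1 of the 15 Ramos libraries, 37 of 49 short and 1 of 17 long genes, and 22 genes at 0 in at least 1 HCT116 library. In all 15 Ramos libraries 5 genes were listed at 0, among them SNORA48, SNORA17B, SNORA7A and SNORA78. Each of the 5 lies wholly inside an exon of at least 1 annotated transcript of its host (EIF4A1, SNHG7, RPL32 and SNHG9 for those named), as do 11 of the 66 genes in all. A value of 0 in a table of estimated levels need not mean absence, since reads can be given to the host transcript, and whether that happened was not tested.

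The question for HCT116 cells was whether Omomyc changed these RNAs, and in each of the 4 comparisons with untreated cells the genes that changed were almost all higher. Differences were tested with limma on log2(RPKM + 0.5) over all genes with a mean of at least 0.5 RPKM in the libraries compared, and a gene was called at a Benjamini-Hochberg adjusted p under 0.05; every fold change is on that scale, which understates changes of low genes. At 2 µM for 6 h, 29 of 60 genes rose and 1 fell, where 15.5% of all 14550 genes tested were called higher and 31.8% lower. At 2 µM for 24 h, 30 of 59 rose and 0 fell (16.6% higher and 10.8% lower among all 14886 genes). At 10 µM for 6 h, 21 of 60 rose and 0 fell (8.84% higher and 21.2% lower among all 14785 genes). At 10 µM for 24 h, 21 of 57 rose and 3 fell (19.5% higher and 15.7% lower among all 14827 genes). The median change of the tested genes was 0.62, 0.66, 0.93 and 0.39 in the same order, beside −0.12, 0.04, −0.11 and 0.02 over all genes tested. Of the 66 genes 10 rose in all 4 comparisons, 13 in 3, 6 in 2, 10 in 1 and 27 in 0, but the 4 comparisons share their untreated libraries. Repeated calls were not counted over all genes, so these numbers do not tell whether the group repeated more often than other genes.

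The sum of all RPKM was 593633 to 660769 in untreated and 659047 to 1051041 in treated HCT116 libraries. Setting all libraries to an equal sum moved the median of all genes to −0.42, −0.10, −0.56 and −0.14 in the order above, and the calls to 27 higher and 6 lower, 31 and 2, 16 and 0, and 24 and 10. The median of the tested genes of the group was above 0 under that scaling too, at 0.38, 0.52, 0.49 and 0.25. Median-ratio scaling moved the median of all genes by 0.13 at 2 µM and 0.12 at 10 µM for 6 h, and the calls to 32 higher and 1 lower and 25 and 0. Without the third library of 10 µM for 6 h that comparison called 48 genes higher and 0 lower with a median of 1.35, and without the first or the third untreated library it called 12 or 11. The 2 µM 24 h comparison called 18 without the third untreated library.

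**Figure D1:**
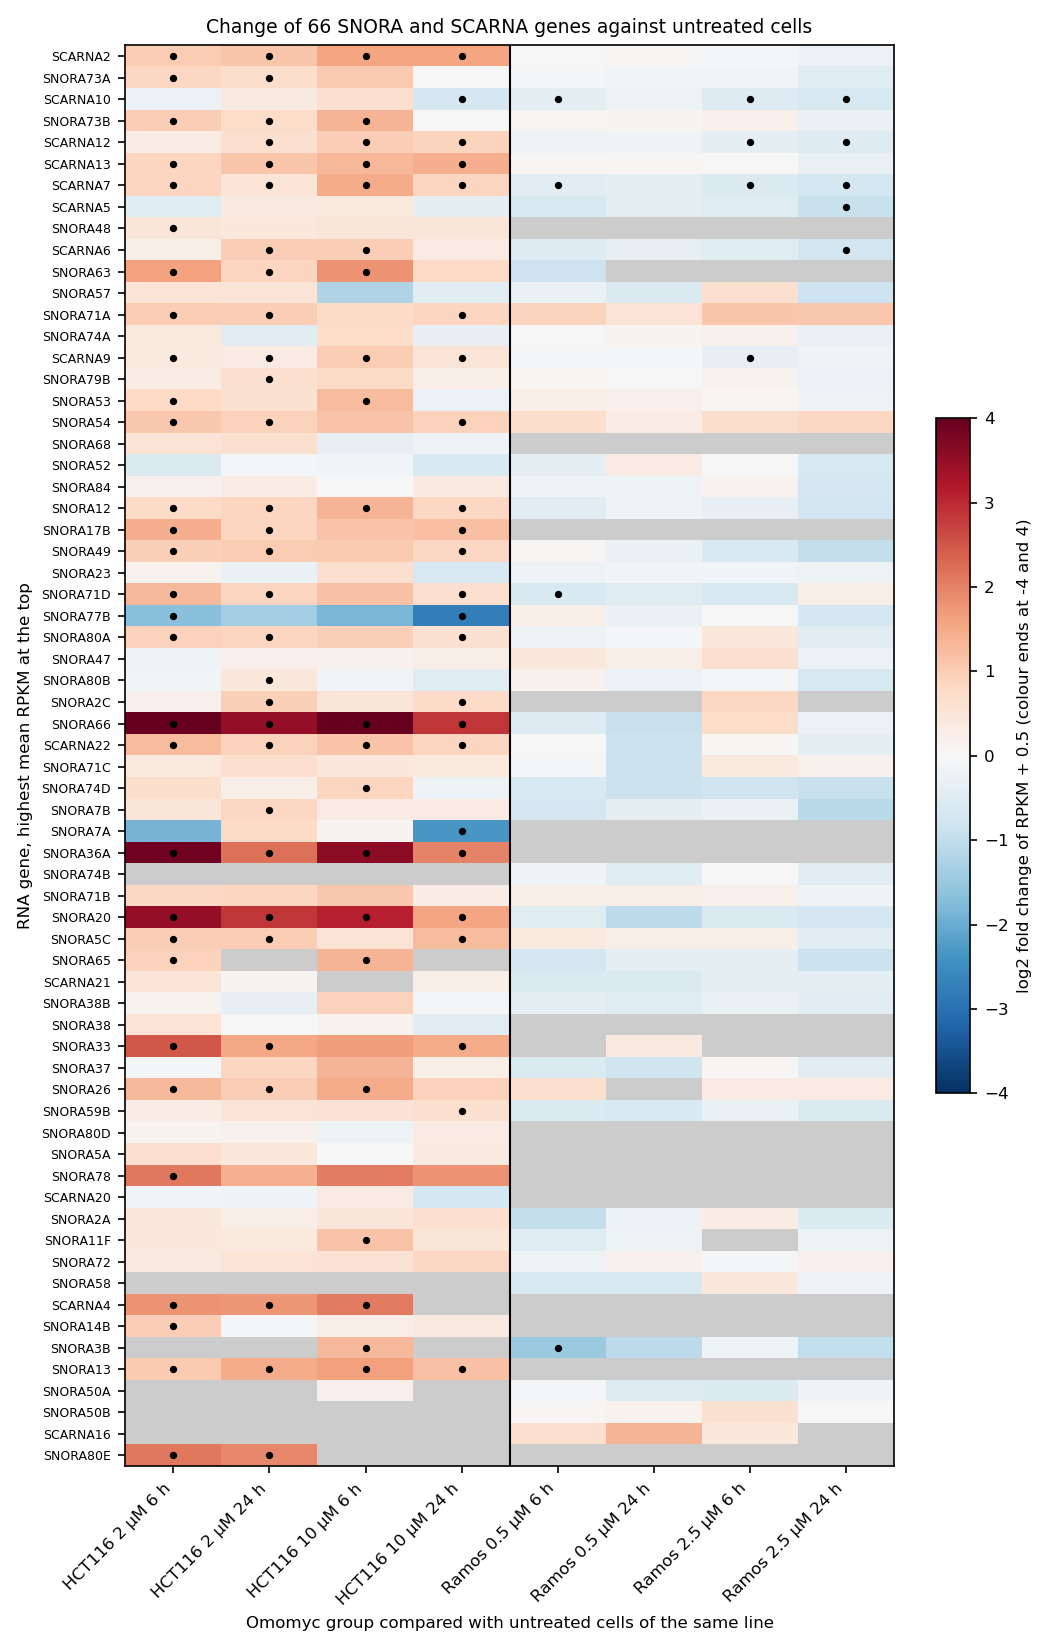
Log2 fold change of RPKM + 0.5 for the 66 genes (rows, highest mean at the top) in the 8 comparisons with untreated cells (columns, n = 3 against 3). Black dots mark adjusted p under 0.05 and grey marks genes under the minimum level. The 4 HCT116 columns are mostly red, and the dots in the 4 Ramos columns all lie on blue.

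SNORA66, an intron-encoded RNA of RPL5, showed the largest rise. It had 0.58, 0.87 and 0 RPKM in the 3 untreated HCT116 libraries and 13.97, 38.5 and 24.3 RPKM at 2 µM for 6 h. At 2 µM for 24 h it had 13.5, 4.69 and 14.5 RPKM. No treated library overlapped the untreated ones: the values at 10 µM were 32.6, 10.3 and 9.67 RPKM after 6 h and 4.66, 4.49 and 10.6 RPKM after 24 h. The log2 fold changes were 4.74 ± 0.40 (SE) at 2 µM for 6 h, 3.51 ± 0.45 at 2 µM for 24 h, 4.09 ± 0.52 at 10 µM for 6 h and 2.87 ± 0.39 at 10 µM for 24 h (limma adjusted p = 4.84e-05, 0.00118, 0.00214 and 0.000602). RPL5 itself had 888 RPKM in untreated cells and between 789 and 897 RPKM in the treated groups, and its changes did not pass the test.

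SNORA36A, which lies in an intron of DKC1, the gene of dyskerin, rose in all 4 comparisons too. Its untreated values were 0.70, 0.52 and 0 RPKM, and those at 2 µM for 6 h were 7.28, 21.6 and 11.1 RPKM. After 24 h at 2 µM they were 4.998, 0.86 and 7.49 RPKM, of which the second was closest to the untreated libraries. At 10 µM they were 13.3, 3.40 and 19.0 RPKM after 6 h and 4.34, 1.68 and 3.11 RPKM after 24 h. The log2 fold changes were 3.89, 2.20, 3.58 and 1.98 (SE 0.40, 0.59, 0.59 and 0.36), and the limma adjusted p lay between 0.000116 and 0.0238. The call at 2 µM for 24 h was lost under 6 of 15 alternatives (limma adjusted p up to 0.13) and that at 10 µM for 24 h under 1 of 14. DKC1 moved by 0.21, −0.26, 0.05 and −0.14, of which all but the third passed the test, so member and host moved in opposite directions at 24 h.

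SNORA20, in an intron of the chaperonin gene TCP1, had 0.19, 0 and 0.57 RPKM in untreated cells. It had 6.40, 7.04 and 10.5 RPKM at 2 µM for 6 h and 7.88, 1.89 and 6.80 RPKM at 2 µM for 24 h. All treated libraries were above the untreated ones, with 10.6, 4.78 and 3.65 RPKM at 10 µM for 6 h and 0.78, 1.51 and 3.26 RPKM at 10 µM for 24 h. The log2 fold changes were 3.53, 2.87, 3.12 and 1.57 (limma adjusted p = 3.15e-05, 0.00282, 0.00225 and 0.0116). At 24 h each of these 3 genes was lower with 10 µM than at 6 h in the mean, but the tests of that difference gave no call for any of them. Without the third library of 10 µM for 6 h the rises at that dose and time were 4.39 for SNORA66, 3.11 for SNORA36A and 3.41 for SNORA20, and all 3 passed the test.

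Abundant scaRNAs rose in HCT116 cells too. SCARNA2 had 374, 384 and 391 RPKM in untreated cells and 865, 760 and 698 RPKM at 2 µM for 6 h. At 10 µM for 24 h it had 1154, 1014 and 1259 RPKM, a mean of 1142 ± 123.02 (SD, n = 3) against 383 ± 8.42. All 12 treated libraries were above the 3 untreated ones, and the log2 fold changes were 1.01, 1.12, 1.58 and 1.57 (limma adjusted p between 4.70e-06 and 0.00500). SCARNA13, an H/ACA scaRNA, had 91.3, 94.2 and 83.5 RPKM in untreated cells and 225, 236 and 280 RPKM at 10 µM for 24 h. Its log2 fold changes were 0.86, 1.11, 1.33 and 1.45, again with no overlap. SCARNA7 had 139, 121 and 133 RPKM in untreated cells and 251, 237 and 225 RPKM at 10 µM for 24 h, and rose by 0.86, 0.55, 1.48 and 0.86. The third library of 10 µM for 6 h read 684 RPKM for SCARNA7 against 228 and 308 in its companions, although the summed level of the 66 genes was lowest in that library.

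Rises in all 4 comparisons were also found for SCARNA9, SCARNA22, SNORA12 and SNORA13. SCARNA9 (in CEP295) had a mean of 23.9 ± 0.64 RPKM in untreated cells and 30.4 to 51.3 RPKM in the treated groups. SCARNA22 (in NSD2) had 4.90 ± 1.28 RPKM in untreated cells and between 9.17 and 12.3 RPKM in the treated groups. SNORA12 (in CWF19L1) rose from 9.13 ± 0.43 RPKM to between 16.1 and 24.6 RPKM, and its groups did not overlap in any of the 4 comparisons. SNORA13 (in EPB41L4A-AS1) was near the minimum level, from 0.18 ± 0.19 to at most 1.61 ± 0.38 RPKM.

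The 13 genes that rose in 3 of the 4 comparisons were SCARNA4, SCARNA12, SNORA5C, SNORA17B, SNORA26, SNORA33, SNORA49, SNORA54, SNORA63, SNORA71A, SNORA71D, SNORA73B and SNORA80A. For 8 of them the comparison without a call was that of 10 µM for 6 h, where the third library stood apart. SNORA71A, inside SNHG17, is an example: it had 42.6, 41.7 and 37.5 RPKM in untreated cells, 86.7, 57.7 and 112 RPKM at 2 µM for 6 h, and 134, 155 and 16.0 RPKM at 10 µM for 6 h, where only the third library lay below the untreated ones. SNORA57, inside CSKMT, had 170, 267 and 0 RPKM in that group. SNORA33, inside the ribosomal protein gene RPS12, had 1.77, 0.18 and 0.39 RPKM in untreated cells and 4.22, 6.18 and 7.09 RPKM at 2 µM for 6 h, and rose by 2.48 there. SCARNA4 (in KHDC4) was at most 0.20 RPKM in untreated cells and rose by 1.81, 1.77 and 2.08 at 2 µM for 6 and 24 h and 10 µM for 6 h. Among the other scaRNAs SCARNA20 (in USP32) and SCARNA21 (in CHD3) had no call in HCT116 cells, with changes between −0.70 and 0.51 where tested, and SCARNA16 (in SEC14L1) was under the minimum level there.

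**Figure D2:**
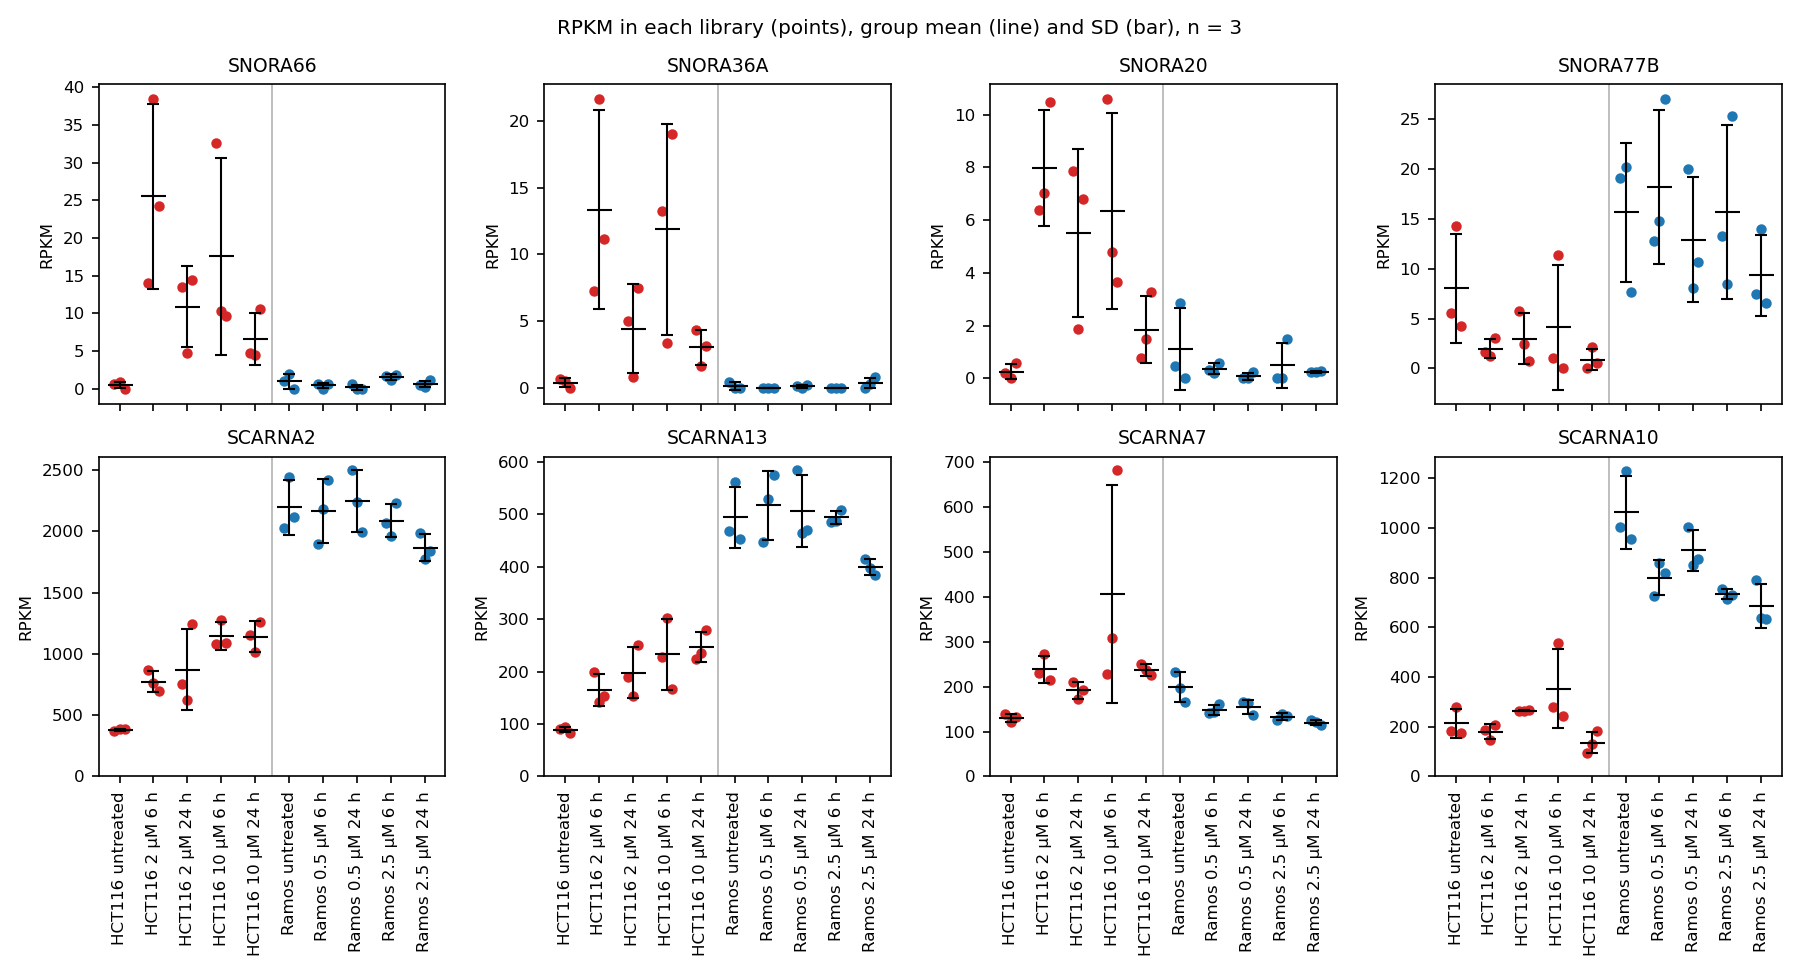
RPKM of 8 genes in every library (points, red HCT116 and blue Ramos), with the group mean (line) and SD (bar), n = 3. SNORA66, SNORA36A and SNORA20 are at most 0.87 RPKM in untreated HCT116 cells and at most 2.87 RPKM in Ramos libraries, and SCARNA10 is at 633 RPKM or above in every Ramos library and at most 537 RPKM in HCT116 cells.

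Just 3 of the 66 genes fell in at least 1 HCT116 comparison. SNORA77B, inside exons of 3 of 14 RANBP1 transcripts, had 5.52, 14.3 and 4.24 RPKM in untreated cells, 1.66, 1.23 and 3.09 RPKM at 2 µM for 6 h and 0, 2.11 and 0.56 RPKM at 10 µM for 24 h. It fell by 1.66 and by 2.75 on the log2 scale (limma adjusted p = 0.00753 and 0.00466), with no overlap in either case, and changed by −1.41 and −1.83 at 2 µM for 24 h and 10 µM for 6 h without a call. Each of the 2 calls was lost under 2 of 15 alternatives (limma adjusted p up to 0.17 and 0.0537). RANBP1 was called higher at 2 µM for 6 h, with means of 181 RPKM untreated and 228 RPKM treated, and had no call at 10 µM for 24 h. Whether reads of SNORA77B were given to its host was not tested. SNORA7A, inside an exon of RPL32, fell by 2.34 at 10 µM for 24 h (limma adjusted p = 0.0361) from 8.20, 5.83 and 2.41 to 0, 0.04 and 4.04 RPKM, groups that overlap. SNORA7A and SNORA7B share 98.6% of aligned bases, so reads can be split between them and the value of either is uncertain. SCARNA10 fell by 0.66 at 10 µM for 24 h (limma adjusted p = 0.0493), from 185, 281 and 175 to 95.5, 132 and 183 RPKM, which also overlap.

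Both kinds of gene took part. At 10 µM for 24 h, 6 of 11 SCARNA and 15 of 46 SNORA genes rose, and at 2 µM for 24 h 8 of 12 and 22 of 47 did. The 11 genes inside SNHG hosts had medians of 0.86, 0.85, 1.09 and 0.39 (2 µM for 6 and 24 h, 10 µM for 6 and 24 h), the genes inside ribosomal protein genes 0.54, 0.71, 0.94 and 0.34, and the genes inside other protein-coding genes 0.48, 0.51, 0.66 and 0.36. Other short genes moved too. Among genes under 160 bases outside the group, 16 of 43, 9 of 37, 19 of 44 and 10 of 36 rose and 2, 1, 0 and 1 fell, with medians of 0.87, 0.63, 0.98 and 0.29. Short genes outside the group thus also rose more often than they fell, and the part of length in the rises was not tested.

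Many of the risen genes lie in hosts with no call, but most of all genes tested had no call either. Called in either direction were 5220 of 14827 genes at 10 µM for 24 h and 4071 of 14886 at 2 µM for 24 h. At 6 h they were 4439 of 14785 at 10 µM and 6884 of 14550 at 2 µM. Of the 20 genes with a tested host that rose at 10 µM for 24 h, 7 had a host that rose, 1 a host that fell and 12 a host with no call. At 2 µM for 24 h the hosts of the 30 risen genes were 12 higher, 2 lower and 16 not called, at 10 µM for 6 h those of 20 were 7, 2 and 11, and at 2 µM for 6 h those of 29 were 13, 4 and 12. Counting each tested host once, whether or not its gene rose, 14 of 47 hosts rose and 4 fell at 10 µM for 24 h, 13 of 48 and 4 at 2 µM for 24 h, 10 of 50 and 6 at 10 µM for 6 h and 21 of 49 and 8 at 2 µM for 6 h. Among all genes tested 19.5% were higher and 15.7% lower, 16.6% and 10.8%, 8.84% and 21.2%, and 15.5% and 31.8% in this order. The hosts were thus called higher more often than all genes, and lower less often. Across gene and host pairs the Pearson correlation of the log2 changes was 0.10, 0.08, 0.08 and 0.11 in the order of 2 µM 6 and 24 h and 10 µM 6 and 24 h (n = 58, 57, 58 and 55 pairs, several of which share a host and all of which share libraries).

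Individual pairs differed. SCARNA2 rose with its host transcript in HCT116 cells, whose log2 changes were 1.24, 1.02, 2.45 and 1.66, and the ratio of the pair changed by −0.23, 0.11, −0.87 and −0.09 (exact permutation p from 0.3 to 0.9), but the RNA lies inside an exon of that transcript and reads of the pair cannot be told apart by position. In Ramos cells the mean of this host was 12.5 RPKM untreated and between 34.2 and 54.2 RPKM in the treated groups. SCARNA2 there had 2195 RPKM untreated and between 1867 and 2246 RPKM treated. SNHG10, the host of SCARNA13, rose in all 4 comparisons, and the ratio of SCARNA13 to it changed by 0.68 at 2 µM and 0.88 at 10 µM for 24 h (exact permutation p = 0.1 for both) and by 0.12 and 0.14 at 6 h. With 3 against 3 libraries 0.1 is the smallest p that the permutation test can give. The ratio of SNORA66 to RPL5 changed by 4.73, 3.62, 4.28 and 2.94. SNHG3, the host of the SNORA73 pair, rose by 0.69, 1.25 and 0.40 at 2 µM for 6 h and 10 µM for 6 and 24 h. SNORA73A rose by 0.82 and 0.71 at 2 µM for 6 and 24 h, and changed by 1.04 and −0.01 at 10 µM for 6 and 24 h without a call. The pair shares 93.2% of aligned bases, and SNORA73B gave 0.99, 0.74, 1.35 and 0.02, of which all but the last passed the test.

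**Figure D3:**
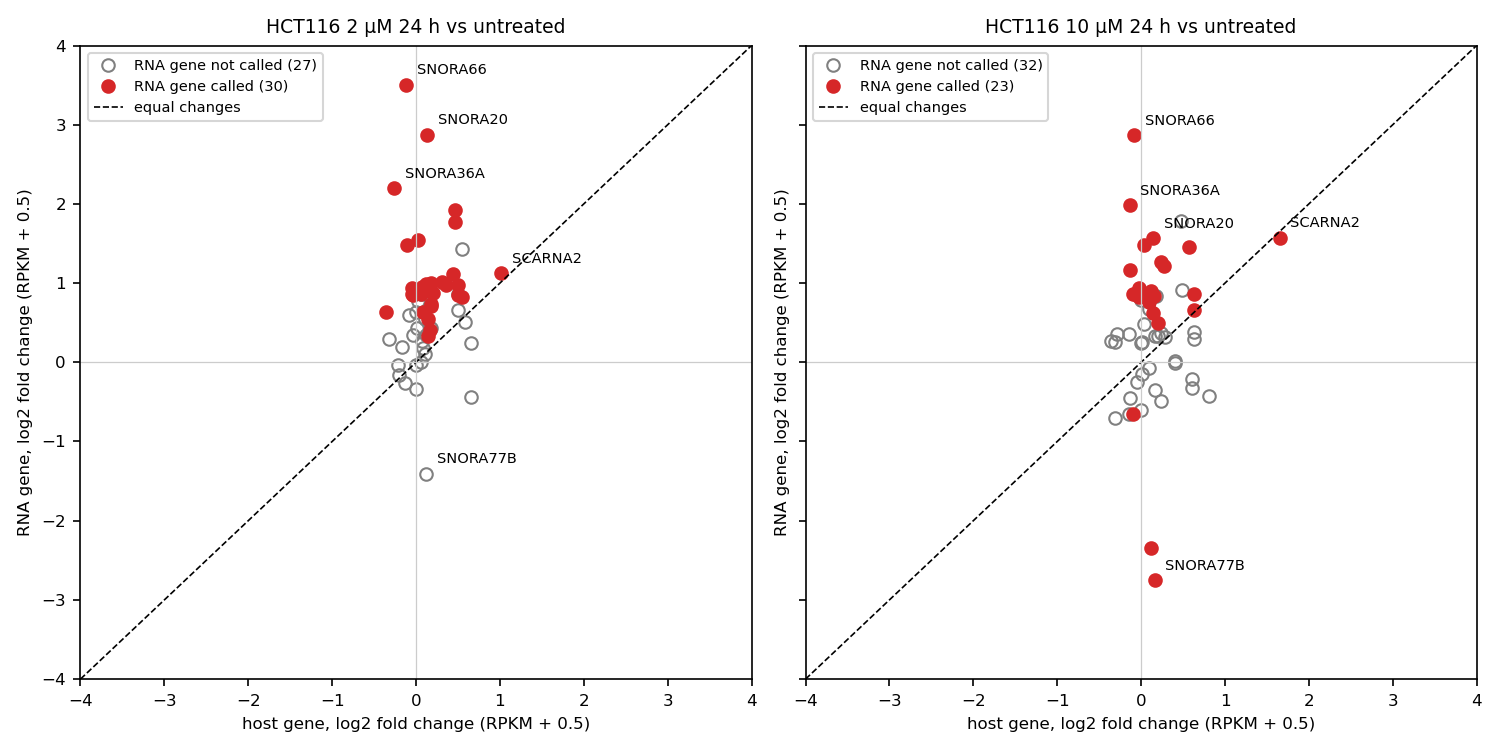
Log2 fold change of each tested gene (vertical) against that of its host gene (horizontal) in HCT116 cells at 2 µM (left, 57 pairs) and 10 µM (right, 55 pairs) for 24 h, red where the gene was called. SNORA66, SNORA20 and SNORA36A lie far above the dashed line of equal changes, at host changes between −0.26 and 0.14, and SCARNA2 lies close to it.

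In Ramos cells no gene of the group was called higher, and the few calls were falls, mostly of abundant scaRNAs. At 2.5 µM for 24 h, 0 of 48 tested genes rose and 5 fell, where 3.3% of all 13607 genes were called higher and 1.31% lower. At 2.5 µM for 6 h, 0 of 49 rose and 4 fell (17.3% higher and 10.7% lower among all 13595 genes), a share of the group no larger than that of all genes. At 0.5 µM for 6 h, 0 of 50 rose and 4 fell (13.8% higher and 9.73% lower among all 13614 genes), a share of the group close to that of all genes. At 0.5 µM for 24 h limma called 0 of 49 (0.0146% higher and 0% lower among all 13674 genes, that is 2 genes), and at an unadjusted p under 0.05 there were 2 genes of the group and 763 in all. The medians were −0.41, 0.00, −0.20 and −0.22 in this order, beside 0.05, 0.03, 0.02 and 0.02 over all genes; the median at 2.5 µM for 6 h was 0.12 with libraries set to an equal sum and −0.03 with median-ratio scaling. Without the third untreated library the 4 medians were −0.79, −0.43, −0.61 and −0.55.

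The 5 genes lower at 2.5 µM for 24 h were SCARNA5, SCARNA6, SCARNA7, SCARNA10 and SCARNA12, and the 4 at 2.5 µM for 6 h were SCARNA7, SCARNA9, SCARNA10 and SCARNA12. All of them are among the 7 genes with the TGATGA and CTGA boxes shown above, whose median change was −0.63 at 24 h and −0.48 at 6 h. All 7 are also longer than 160 bases. That length class, which includes them, had a median of −0.37 at 24 h, with 0 of 16 tested genes above 0. At 6 h its median was −0.10, with 7 of 17 above 0. Whether the boxes, the length or the level of these genes plays a part was not tested. The other SCARNA genes had medians of −0.36 (3 tested) and 0.02 (4 tested). The 7 genes were measured more precisely than most, with a median SE of 0.10 and 0.09 against 0.52 and 0.51 for the genes under 160 bases, so a change of −0.63 is close to the SE of a short gene and could not be told from the spread there.

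SCARNA7 had 233, 198 and 167 RPKM in untreated Ramos cells and 126, 120 and 114 RPKM at 2.5 µM for 24 h. At 2.5 µM for 6 h it had 126, 140 and 134 RPKM and at 0.5 µM for 6 h 141, 143 and 162 RPKM. All of these were below the untreated libraries, and the gene fell by 0.71, 0.57 and 0.41 on the log2 scale (limma adjusted p = 0.0117, 0.00486 and 0.0242). SCARNA10 had 1004, 1229 and 955 RPKM in untreated cells, 790, 638 and 634 RPKM at 2.5 µM for 24 h and 755, 715 and 728 RPKM at 2.5 µM for 6 h, and fell by 0.63 and 0.53. SCARNA12 had 443, 486 and 411 RPKM in untreated cells and 352, 301 and 289 RPKM at 2.5 µM for 24 h, and fell by 0.51 there and by 0.36 at 6 h. SCARNA5 and SCARNA6, neighbours in introns of ATG16L1, fell by 0.90 and 0.74 at 2.5 µM for 24 h, from means of 292 ± 103 and 126 ± 32.4 to 150 ± 8.47 and 74.0 ± 8.32 RPKM. Without the third untreated library the changes at 2.5 µM for 24 h were −1.17 for SCARNA5, −0.96 for SCARNA6 and −0.83 for SCARNA7, each past the test. Over all alternatives, the calls at that dose and time were lost under 8 of 15 for SCARNA5 (limma adjusted p up to 0.195), 8 of 15 for SCARNA6 (up to 0.192) and 5 of 15 for SCARNA7 (up to 0.0873), and that of SCARNA7 at 0.5 µM for 6 h under 6 of 15 (up to 0.124).

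At 0.5 µM for 6 h SNORA3B and SNORA71D fell beside SCARNA7 and SCARNA10. SNORA3B, inside RPL27A, had 1.20, 2.17 and 0.32 RPKM in untreated cells and 0, 0 and 0.20 RPKM, and SNORA71D, inside SNHG17, went from 1.41, 1.65 and 1.58 to 0.61, 0.94 and 0.97 RPKM. These levels are close to the minimum, and without the third untreated library SNORA71D changed by −0.61 with a limma adjusted p of 0.0683. Over all alternatives the call was lost under 9 of 14 for SNORA71D and 5 of 13 for SNORA3B (limma adjusted p up to 0.0955 and 0.112). Hosts of the 5 genes lower at 2.5 µM for 24 h had no call, and at 6 h PHB2, the host of SCARNA12, fell by 0.22. The Ramos counts depended on single libraries. Without the third untreated library 13, 13 and 10 genes were lower (2.5 µM for 24 and 6 h, 0.5 µM for 6 h), without the second or the third library of 2.5 µM for 24 h that comparison called 0, and without its first library 2. Leaving out the first or second untreated library left 3 calls at 2.5 µM for 24 h and 1 or 2 at 0.5 µM for 6 h, where leaving out the first, the second or the third treated library left 0, 1 or 2. The falls of SCARNA7, SCARNA10 and SCARNA12 at 2.5 µM for 6 h kept a limma adjusted p of at most 0.0427 under all alternatives tried.

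**Figure D4:**
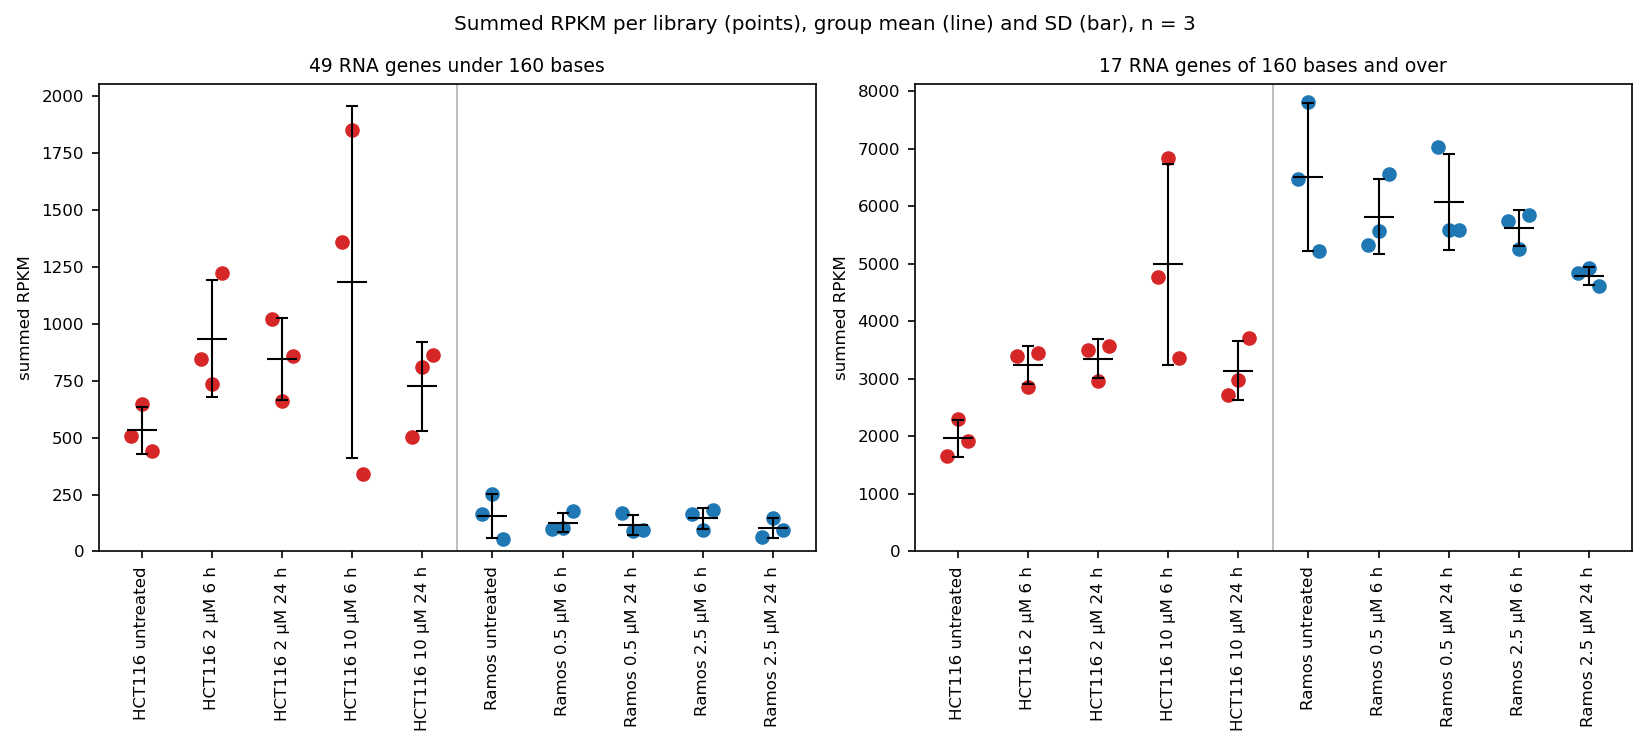
Summed RPKM of the 49 genes under 160 bases (left) and the 17 longer genes (right) in each library (points), with the group mean (line) and SD (bar), n = 3. Short genes sum to 339 RPKM or more in every HCT116 library and at most 250 RPKM in Ramos libraries, while long genes sum to more in untreated Ramos (5232 to 7810 RPKM) than in untreated HCT116 libraries (1663 to 2307 RPKM).

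Time was compared at the highest dose of each line. In HCT116 cells at 10 µM 0 of 61 genes were higher and 4 lower at 24 h than at 6 h (5.8% higher and 2.06% lower among all 14920 genes), with a median of −0.50 against 0.15 over all genes. SNORA53, inside the phosphate carrier gene SLC25A3, had 3.99, 4.32 and 3.44 RPKM at 6 h and 0.69, 1.03 and 1.57 RPKM at 24 h, and changed by −1.5005 on the log2 scale (limma adjusted p = 0.00814). SCARNA10, SNORA23 (in IPO7) and SNORA74A (in SNHG4) fell by 1.33, 1.31 and 1.07. The call was lost under 9 of 15 alternatives for SCARNA10, 3 of 15 for SNORA23 and 2 of 15 for SNORA53 (limma adjusted p up to 0.18, 0.086 and 0.0561). The number of genes called rests on single libraries, since 35 genes were lower without the third library of 6 h and 1 without the first, the second or the third 24 h library. In Ramos cells at 2.5 µM 0 of 48 genes were higher and 7 lower at 24 h (12.7% higher and 10.4% lower among all 13564 genes), with a median of −0.40 against 0.01. The share of the group called lower was not far above that of all genes. The 7 genes were SNORA66, SNORA5C, SNORA73B, SNORA74A, SCARNA5, SCARNA13 and SNORA53, and fell by 0.97, 0.69, 0.47, 0.47, 0.42, 0.31 and 0.29. SNORA66 and SNORA5C were near the minimum level, with means of 1.54 and 0.81 RPKM at 6 h and 0.58 and 0.31 RPKM at 24 h. Calls were lost under 7 of 14 alternatives for SNORA66, 7 of 13 for SNORA5C and 5 of 15 for SNORA74A (limma adjusted p up to 0.19, 0.27 and 0.263). SCARNA13 had 486, 488 and 509 RPKM at 6 h and 416, 397 and 385 RPKM at 24 h. Here 13 genes were lower without the second 24 h library, and 4 were called without the first or the third 6 h library. With libraries set to an equal sum the split was 1 higher and 5 lower.

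The untreated lines differed in the listed levels of genes of the group. Of 59 tested genes 19 were higher in HCT116 cells and 17 lower, where 45.7% of all 15647 genes were called higher and 39% lower. The median was −0.32, and it became 0.22 with libraries set to an equal sum, a scaling that moved the median of all genes from 0.09 to 0.62. Without the third untreated Ramos library 18 genes were higher in HCT116 cells and 24 lower, with a median of −0.72. SNORA63, in EIF4A2, had 31.5, 56.3 and 42.9 RPKM in HCT116 cells and 0, 2.94 and 0 RPKM in Ramos cells, a difference of 5.49 ± 0.74. SNORA48 had 127, 148 and 94.3 RPKM in HCT116 cells and was listed at 0 in Ramos cells, so no fold is given. SNORA53 differed the other way, with 1.65, 1.11 and 1.31 RPKM in HCT116 cells and 59.7, 64.2 and 34.6 RPKM in Ramos cells (log2 difference −4.80 ± 0.24). SNORA57 (in CSKMT) and SNORA52 (in RPLP2) were higher in HCT116 cells by 5.18 and 4.99. Like SNORA48, the genes SNORA63, SNORA57 and SNORA52 lie wholly inside an exon of at least 1 annotated host transcript. Their low values in Ramos cells need not mean absence, since reads can be given to the host transcript, and whether that happened was not tested. Log2 differences were −3.68 for SCARNA5, −3.66 for SNORA74A, −2.99 for SCARNA6, −2.60 for SCARNA21, −2.51 for SCARNA2, −2.45 for SCARNA13 and −2.34 for SCARNA10. SCARNA20, listed at 0 in the untreated Ramos libraries, had 1.95, 2.47 and 1.54 RPKM in HCT116 cells. All 7 genes with TGATGA and CTGA boxes were lower in HCT116 cells.

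Direction differed by length class. Of 43 tested genes under 160 bases 19 were higher and 5 lower in HCT116 cells, with a median of 0.75, and of 15 from 160 to under 500 bases 0 were higher and 12 lower, with a median of −2.34. Among genes outside the group 20 of 30 under 160 bases were higher and 2 lower (median 1.97), and 91 of 479 from 160 to under 500 bases were higher and 260 lower (median −0.80). The limit on low values bears on these counts, because a short gene can pass it through 1 line alone. Of the 43 short genes 11 reached 0.5 RPKM in HCT116 cells only, 9 in Ramos cells only and 23 in both, and of the 23 in both 10 were higher and 1 lower in HCT116 cells. The part of length in the difference between the lines was not tested.

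**Figure D5:**
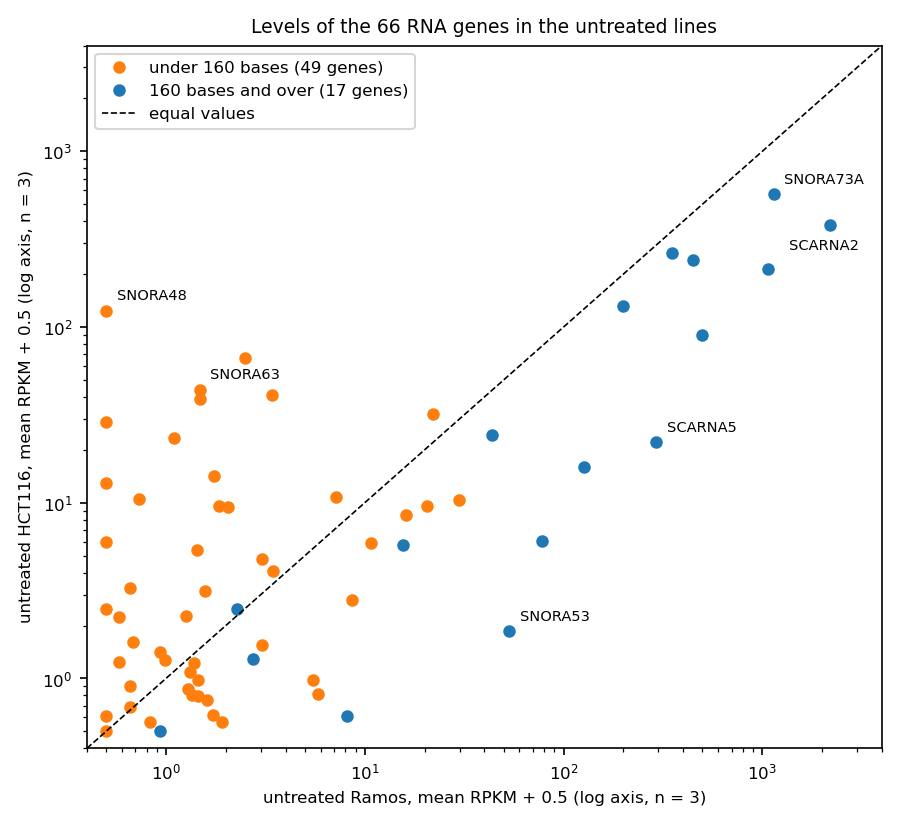
Mean RPKM + 0.5 of the 66 genes in untreated HCT116 (vertical) and untreated Ramos cells (horizontal), both on log axes, n = 3. Most of the 17 genes of 160 bases and over (blue) lie below the dashed line of equal values. The genes under 160 bases (orange) lie on both sides of it, with a log2 difference above 0 in 27 of the 43 tested. SNORA48 is at the left edge because it was listed at 0 in Ramos cells.

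Whether the lines responded differently was tested with a line by treatment interaction at 24 h and the highest dose of each line, 10 µM in HCT116 and 2.5 µM in Ramos cells, so that line and dose cannot be told apart. The delivery reagent is described for the HCT116 libraries only, so its part cannot be told apart from the line either. Of 61 genes 7 had a higher change in HCT116 than in Ramos cells and 0 a lower one (9.65% higher and 12.9% lower among all 15674 genes), a share close to that of all genes, with a median difference of 0.56 against −0.02. With libraries set to an equal sum the split was 8 and 3, and without the third untreated Ramos library it was 14 and 0. SCARNA2 changed by 1.57 in HCT116 and −0.23 in Ramos cells, a difference of 1.80 ± 0.12, and SCARNA13 by 1.45 and −0.30, a difference of 1.76 ± 0.13. SCARNA7 rose by 0.86 and fell by 0.71 in the respective lines, a difference of 1.57 ± 0.14. SCARNA12 rose by 0.90 and fell by 0.51. SNORA66 differed by 3.09 ± 0.80 (limma adjusted p = 0.0175).

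The other genes of the pathway were 31, namely those of the proteins that bind, assemble, localize or mature these RNAs and TERC, the H/ACA-type telomerase RNA. In HCT116 cells 10 rose and 3 fell at 2 µM for 6 h (15.5% and 31.8% of all genes), 5 and 2 at 2 µM for 24 h (16.6% and 10.8%), 4 and 5 at 10 µM for 6 h (8.84% and 21.2%) and 4 and 3 at 10 µM for 24 h (19.5% and 15.7%), with medians between −0.12 and 0.05. Apart from the rises at 2 µM for 6 h, these counts are near or below the shares of all genes. TERC rose in all 4, by 0.41, 0.93, 1.21 and 1.19. Among the core proteins GAR1 rose at 6 h by 0.90 and 0.79 with 2 and 10 µM, and changed by 0.11 and 0.20 at 24 h without a call. DKC1 rose by 0.21 at 2 µM for 6 h and fell by 0.26 and 0.14 at 24 h with 2 and 10 µM. NAF1, an assembly factor that GAR1 replaces in the mature particle, rose at 6 h by 0.41 and 0.60. TOE1, an exonuclease that trims 3′ ends of snRNAs and scaRNAs, rose by 0.55, 0.51 and 0.30 at 2 µM for 6 h and 10 µM for 6 and 24 h. Changes of COIL, which encodes coilin, the scaffold of Cajal bodies, lay between −0.05 and 0.12 with no call.

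In Ramos cells 6 of the 31 rose and 3 fell at 0.5 µM for 6 h, 0 changed at 0.5 µM for 24 h, 5 and 2 did at 2.5 µM for 6 h and 1 and 0 at 2.5 µM for 24 h. The shares of all genes higher and lower were 13.8% and 9.73%, 0.0146% and 0%, 17.3% and 10.7%, and 3.3% and 1.31% in this order, so the counts are near those of all genes. NHP2, a core protein, rose by 0.30 at 6 h with either dose, and WRAP53, which brings CAB box RNAs to Cajal bodies, by 0.41 and 0.43. PAPD5, which adds short A tails to immature ends, rose by 0.31 and 0.40, while the exosome nuclease DIS3 fell by 0.22 and 0.19. SMN1 and SMN2 are near-identical copies, so their values are uncertain. The largest called change of the list in Ramos cells was the 0.43 of WRAP53.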

How the data were processed

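Total RNA of HCT116 and Ramos cells was extracted with RNeasy columns, depleted of ribosomal RNA and sequenced as stranded libraries (TruSeq Stranded Total RNA with Ribo-Zero) by the authors. The authors deposited 1 table of RPKM values for the 30 libraries, and the submitters' processing notes name RSEM; the aligner, its version, the genome build and the annotation are not given in the sources used here. RPKM values are not counts, so depth is unknown, no count test was run and no counting interval is given. Short RNAs pass such columns and library steps incompletely, and estimates for genes shorter than a fragment, or inside an exon, depend on how reads were assigned.

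The 66 genes and the pathway list were chosen with earlier results of these data known. Symbols came from an Ensembl ID table, and positions, hosts and sequences from GENCODE 29 (GRCh38), which holds 57388 of the 57992 IDs. The host was the gene on the same strand that contains the RNA, the highest in mean RPKM where several do. limma 3.58.1 in R 4.3.3 (lmFit, then eBayes with a trend) was run on log2(RPKM + 0.5) for genes with a mean of at least 0.5 RPKM in the libraries compared, on the groups of each of 12 comparisons, with Benjamini-Hochberg adjustment over all genes tested. The script was tested on simulated data. Genes with an adjusted p under 0.05 were called. The ratio of gene to host was tested by exact permutation of 3 against 3 libraries, a test that cannot give a p under 0.1. Named genes were the 10 highest, the 3 largest called changes per direction in each comparison whose groups do not overlap, all SCARNA genes, those called in at least 4 of the 8 comparisons with untreated cells, their hosts, and pathway genes called in at least 2 of those 8; other genes were named after their values were seen. Alternatives were pseudocounts of 0.1 and 1, no filter or a minimum of 2 RPKM, median-ratio and equal-sum scaling, all groups in 1 fit, no trend, a replicate block and leaving out each library. One gene that this rule names and 1 sequence are not reported here.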

Additional observations from a re-analysis of the deposited data

Results flagged for a closer look

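In 7 genes the change at 24 h with the highest dose differed between HCT116 and Ramos cells by the limma interaction test, the change being higher in HCT116 cells in each. That is 7 of 61 tested, a share close to the 9.65% called higher among all 15674 genes. The difference (HCT116 minus Ramos, log2) was 3.09 for SNORA66, 1.80 for SCARNA2, 1.76 for SCARNA13, 1.57 for SCARNA7, 1.40 for SCARNA12, 1.22 for SNORA17B and 0.64 for SCARNA9. SNORA17B was listed at 0 in all Ramos libraries, so its value is the HCT116 change alone. The dose differed between the lines and the delivery reagent may have too, so neither can be told apart from the line. The difference of SNORA66 lost its call under 3 of 21 alternatives, with limma adjusted p from 0.0037 to 0.0996.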

How the results depend on the processing

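The number of the 66 genes called moved by more than 1.5 times as follows, and the cause was not tested. Without a filter on low values, which tests more genes, it was 10 at HCT116 10 µM for 24 h, 11 at 10 µM for 6 h, 11 at 2 µM for 24 h, 0 at Ramos 2.5 µM for 24 h, 0 at 0.5 µM for 6 h, 0 for HCT116 24 h against 6 h and 2 for Ramos 24 h against 6 h. With all groups in 1 fit it was 11, 9 and 19 at HCT116 10 µM for 24 h, 2 µM for 24 h and 2 µM for 6 h, 9 for HCT116 24 h against 6 h and 2 for that comparison in Ramos cells. Without the trend it was 18 at HCT116 2 µM for 24 h, 0 and 1 at Ramos 2.5 µM for 24 h and 0.5 µM for 6 h, and 3 for Ramos 24 h against 6 h. Equal sums gave 2 for HCT116 24 h against 6 h and 11 for the interaction, and median-ratio scaling 3 at Ramos 2.5 µM for 24 h.

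Leaving out 1 library gave 21 to 29 genes at HCT116 10 µM for 24 h, 11 to 48 at 10 µM for 6 h, 18 to 36 at 2 µM for 24 h, 27 to 38 at 2 µM for 6 h, 0 to 13 and 4 to 13 at Ramos 2.5 µM for 24 and 6 h, 0 and 0 to 10 at 0.5 µM for 24 and 6 h, 1 to 35 and 4 to 13 for 24 h against 6 h in HCT116 and Ramos cells, 32 to 42 between the lines and 7 to 14 for the interaction.

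Libraries with the same replicate number were not treated as pairs in the main fit. In no comparison did every pair of same-numbered libraries have deviations correlated above 0.1, a check that cannot show that pairing is absent. At HCT116 10 µM for 6 h the 3 correlations were 0.057, 0.148 and 0.085. With the replicate block 32 genes were called at HCT116 10 µM for 6 h, and the other counts stayed within 1.5 times. The block was not run between the untreated lines, where it could not be fitted beside the line. Equal sums moved the median change of all genes by 0.19 and 0.13 at Ramos 2.5 µM for 24 and 6 h, by 0.27 for HCT116 24 h against 6 h (median-ratio scaling by −0.16) and by −0.32 for the interaction. None of the 3 largest called changes per direction in each comparison, as chosen by the naming rule, reversed direction under the alternatives. With no read depth, changes of genes near 0.5 RPKM have the least support.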
